A study of Homo sapiens with 13 samples.

Results

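The enzymes that make polyamines and run the methionine cycle were followed by 10 genes, ODC1, AMD1, SRM, SMS, SAT1, OAZ1, MAT2A, MAT2B, AHCY and MTRR, out of 18568 genes with a probe set of their own. For each gene, the probe sets annotated to that symbol alone were taken, and the one with the highest mean over the arrays was used. All 10 genes had such a probe set and passed the filter on low expression, which kept 12560 genes. RNA came from 13 established acute lymphoblastic leukemia (ALL) cell lines, untreated and cultured for 30 h, with 1 Affymetrix HG-U133 Plus 2.0 array per line. T-cell ALL (T-ALL) was represented by 7 lines, Jurkat, Molt4, CCRF-CEM, HPB-ALL, ALL-SIL, TALL-1 and P12-ICHIKAWA. B-cell precursor ALL (BCP-ALL) was represented by REH, 697, RS4;11, Nalm6, Nalm16 and Nalm30, 6 in all. Levels are the deposited log2 signals, made after the number 16 was added to each signal, so the lowest possible level is 4 and folds of dim probe sets are understated. The replicates of a lineage are its cell lines, and p-values therefore refer to the variation from line to line.

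Polyamines (putrescine, spermidine and spermine) are small cations that bind nucleic acids and are needed by dividing cells, and their synthesis joins ornithine to S-adenosylmethionine. The methionine cycle makes S-adenosylmethionine, uses it to methylate other molecules, hydrolyses the product to homocysteine and remethylates homocysteine with a methyl group carried by folate. The cycle touches methotrexate, an antifolate used in ALL, through that methyl group, and glutathione through homocysteine, which can be diverted to cysteine. The study set gene expression against glutathione and against the methotrexate IC50, the dose of half-maximal inhibition.

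The bases before the start sites were found in the RefSeq table (GRCh38.p14) for 9 of the 10 genes, MTRR being the gene without an entry. They are shown for the polyamine genes with an E-box there (ODC1, SRM) and for genes whose levels differed most between lines (AMD1, MAT2A, SAT1), read on the strand of the gene. Capitals mark the E-box that MYC binds, spelled CACGTG, the basal promoter motif spelled TATAAA, or the ETS factor site spelled CCGGAAG. With the core of the cyclic AMP response element, spelled TGACGT, each was searched on both strands in the 250 bases before the start.
ODC1, 30 bases around the E-box at position -29 of the second start site, chr2:10448024-10448053, minus strand: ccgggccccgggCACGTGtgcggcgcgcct
SRM, chr1:11060019-11060268, minus strand: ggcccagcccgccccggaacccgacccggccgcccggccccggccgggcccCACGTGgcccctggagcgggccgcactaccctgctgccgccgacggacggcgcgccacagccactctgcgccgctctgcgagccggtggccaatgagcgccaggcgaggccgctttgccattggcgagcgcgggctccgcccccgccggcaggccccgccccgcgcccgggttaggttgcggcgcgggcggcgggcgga
AMD1, chr6:110874535-110874784, plus strand: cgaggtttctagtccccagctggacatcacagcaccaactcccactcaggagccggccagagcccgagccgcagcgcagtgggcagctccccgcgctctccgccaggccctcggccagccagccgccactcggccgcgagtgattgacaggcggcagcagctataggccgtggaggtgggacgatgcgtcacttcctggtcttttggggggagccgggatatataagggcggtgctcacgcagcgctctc
MAT2A, chr2:85538918-85539167, plus strand: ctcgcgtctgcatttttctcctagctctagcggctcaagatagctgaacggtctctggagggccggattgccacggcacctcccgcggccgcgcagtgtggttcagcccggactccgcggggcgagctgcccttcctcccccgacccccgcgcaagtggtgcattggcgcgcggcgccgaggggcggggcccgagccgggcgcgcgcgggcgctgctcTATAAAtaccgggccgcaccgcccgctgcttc
SAT1, chrX:23782923-23783172, plus strand: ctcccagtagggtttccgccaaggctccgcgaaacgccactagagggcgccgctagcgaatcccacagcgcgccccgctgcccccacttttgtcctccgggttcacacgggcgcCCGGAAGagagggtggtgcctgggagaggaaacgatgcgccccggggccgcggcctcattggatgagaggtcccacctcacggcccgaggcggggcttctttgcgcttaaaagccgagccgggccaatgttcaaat
The SRM stretch held its E-box at position -199, the MAT2A stretch its basal motif at -32 and the SAT1 stretch its ETS site at -136. The AMD1 stretch held none of the 4 motifs as spelled. It did hold the letters tatataag, which the exact search for TATAAA does not match. AMD1 had 3 start sites, of which only the first is shown, and the others held none of the motifs either. TGACGT was found at -178 of the other ODC1 start site. Of the 3 AHCY stretches, not shown, none held the E-box. Of 35116 such stretches in the table, 6.34% held the E-box, 10.7% the basal motif, 8.52% the ETS site and 7.1% TGACGT. A match is a run of letters and shows no binding.

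The arrays separated the lineages as labelled: 5 of 6 measured B-lineage markers were lower in every T-ALL line than in any BCP-ALL line, and 6 of 8 T-lineage markers were higher. Some arrays were much alike, and their lines may not be independent of each other. The arrays of P12-ICHIKAWA and TALL-1 had a Pearson's r of 0.993 over all probe sets. Nalm16 and Nalm30 correlated at 0.959 with each other but at 0.77 to 0.879 with the other 11 lines, which correlated at 0.870 to 0.956 among themselves, P12-ICHIKAWA with TALL-1 apart. The array medians of Nalm16 and Nalm30, 5.05 and 5.09, were the lowest, against 5.15 to 5.37 in the others. The mean level of 4 proliferation markers was 9.05 in Nalm16 and 9.88 in Nalm30, and up to 10.4 in the other BCP-ALL lines, against 10.1 to 10.7 in T-ALL lines. The GAPDH 3′ minus 5′ signals of Nalm16 and Nalm30 were 0.102 to 0.209, against -0.071 to 0.178 in the other lines, and the same difference for ACTB was 0.400 to 0.542, against 0.093 to 0.572. The part of these features in the results was not tested, and results that rest on this pair are given with and without it.

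ODC1 makes putrescine from ornithine and is the entry step of polyamine synthesis. It was lowest in ALL-SIL, at 10.69, against 11.45 to 12.02 in the other T-ALL lines and 11.63 to 12.16 in BCP-ALL lines. The medians were 11.68 in T-ALL and 11.88 in BCP-ALL. The groups overlapped, and ALL-SIL was the single line that stood well below the rest. OAZ1, the antizyme that binds ODC1 and sends it to degradation, was at 12.34 in ALL-SIL and at 12.06 to 12.18 in the other T-ALL lines, against 11.80 to 12.21 in BCP-ALL. OAZ1 was among the steadiest transcripts on the arrays: 0.924% of expressed genes had a smaller SD over the lines. Translation of OAZ1 depends on a frameshift induced by polyamines, which an array does not see.

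AMD1 decarboxylates S-adenosylmethionine and so supplies the aminopropyl groups of spermidine and spermine. Its level was even in T-ALL, from 9.39 to 9.97 with a median of 9.74. In BCP-ALL it ran from 6.86 to 9.84 with a median of 8.89. Nalm16 (6.86) and Nalm30 (7.28) were the lowest of all lines, and the other 4 BCP-ALL lines lay at 8.72 to 9.84, overlapping T-ALL. The mean of the pair was 2.24 log2 units below that of the other 4 BCP-ALL lines, a 4.73-fold difference in signal. In RNA from whole cultures, fewer expressing cells and less RNA per cell cannot be told apart.

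SRM and SMS use those aminopropyl groups to make spermidine and spermine. SRM had a median of 9.52 in T-ALL (9.16 in HPB-ALL to 10.24 in Jurkat), against 9.97 in BCP-ALL (9.27 in REH to 10.18 in Nalm6). SMS was flat, from 9.76 to 10.29 in T-ALL and from 9.59 to 10.28 in BCP-ALL, and 5.81% of expressed genes had a smaller SD. REH was the lowest line for SMS and the lowest BCP-ALL line for SRM.

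SAT1 acetylates spermidine and spermine for export or breakdown, and was the member with the widest range, 3.23 log2 units. It was high in 3 lines, at 9.87 in ALL-SIL, 10.13 in Nalm30 and 9.45 in Nalm16. The other T-ALL lines lay at 7.51 to 8.25, and the other BCP-ALL lines at 6.91 to 8.43, with 697 and REH the lowest. ALL-SIL, with the highest SAT1 of its lineage, also had the lowest ODC1 and the highest OAZ1 of all lines. The other 2 SAT1 probe sets followed the one used, with Pearson's r of 0.992 and 0.959 across lines.

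MAT2A makes S-adenosylmethionine from methionine, and MAT2B is its regulatory subunit. MAT2A was 10.17 to 11.02 in T-ALL with a median of 10.36, against 9.46 to 11.08 in BCP-ALL with a median of 10.62. On the probe set used, Nalm16 (9.46) and Nalm30 (9.71) were again below every other line. On the other MAT2A probe set, P12-ICHIKAWA (7.06) and ALL-SIL (7.17) were lower than Nalm16 (7.22) and Nalm30 (7.29). MAT2B varied little, from 9.79 to 10.53 in T-ALL and from 9.63 to 10.35 in BCP-ALL, where 4 lines lay within 10.28 to 10.35 and Nalm16 and Nalm30 at 9.63 and 9.81. AHCY, which splits S-adenosylhomocysteine, was 9.41 to 10.91 in T-ALL (lowest in HPB-ALL, highest in CCRF-CEM) and 9.96 to 10.93 in BCP-ALL, with Nalm16 and Nalm30 at 10.93 and 10.90. MTRR, which reactivates methionine synthase, was 7.83 to 8.82 in T-ALL, against 6.02 in Nalm16, 7.17 in Nalm30 and 7.90 to 8.81 in the other BCP-ALL lines.

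**Figure D1:**
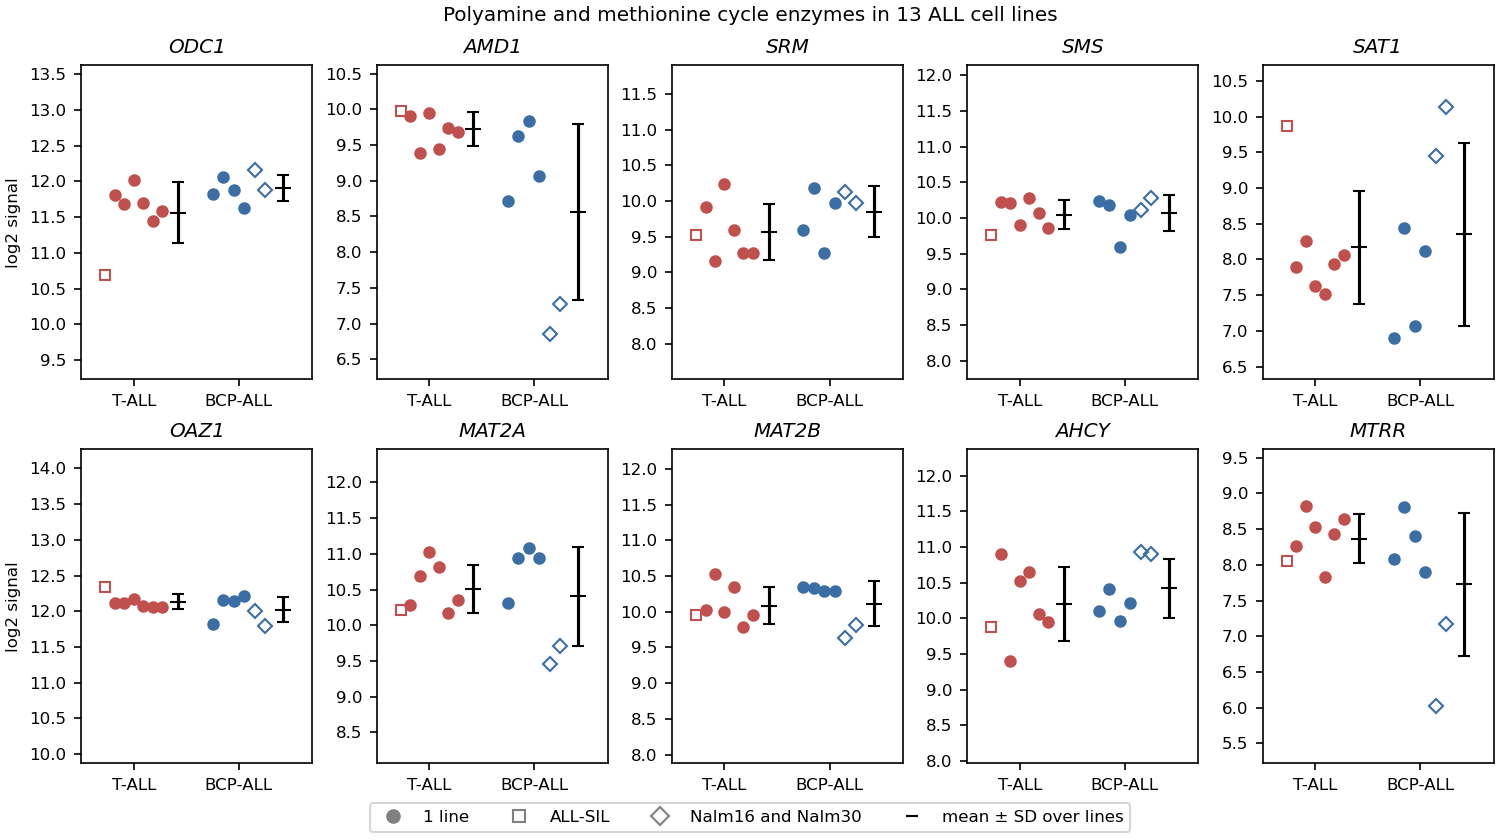
The log2 signal of each member by lineage, with 1 point per line and the mean ± SD over 7 T-ALL and 6 BCP-ALL lines; each panel spans the same number of log2 units. On the probe sets shown, AMD1, MAT2A and MTRR are lowest in Nalm16 and Nalm30, and SAT1 is high in those lines and in ALL-SIL.

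In Nalm16 and Nalm30, 3 of 10 members (AMD1, MAT2A, MTRR) were below all other 11 lines on the probe sets used, and none was above. Of all 12560 genes, 20.5% were below in the same way and 32.5% were either below or above. The arrays of these lines thus differed from the others broadly. On its other probe set MAT2A was not below all 11 lines. Against the other 4 BCP-ALL lines alone, 4 members were below (MAT2B as well) and SAT1 and AHCY above, where 28.0% and 19.2% of all genes were. The pair differed from those 4 lines by -1.70 log2 units for MTRR, -1.23 for MAT2A, -0.60 for MAT2B, 0.75 for AHCY and 2.16 for SAT1. ODC1, SRM, SMS and OAZ1 were within 0.30 log2 units of the other 4.

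No member differed between the lineages after adjustment over all genes, where 7.63% of genes did (limma, 13 lines). The groups overlapped for all 10 members, and 3.69% of all genes had groups that did not overlap. AMD1 came nearest: it averaged 9.73 ± 0.24 in T-ALL and 8.56 ± 1.23 in BCP-ALL (SD, n = 7 and 6), a difference of 1.16 log2 units (SE 0.44, limma adjusted p = 0.123, exact two-sided permutation p = 0.014 over 1716 assignments). Without Nalm16 and Nalm30 the AMD1 difference was 0.42 (SE 0.22, limma adjusted p = 0.346). The MTRR difference was 0.64 (SE 0.38, limma adjusted p = 0.298), and 0.07 without the pair. ODC1 averaged 11.56 ± 0.42 in T-ALL and 11.91 ± 0.19 in BCP-ALL, a difference of -0.34 (SE 0.20, limma adjusted p = 0.287). The differences of the other 7 members lay between -0.28 for SRM and 0.11 for OAZ1 (limma adjusted p from 0.417 to 0.935). At an unadjusted p of 0.05, 1 of 10 members passed (AMD1), where 25.3% of all genes did. For MAT2A the other probe set gave -0.30 where the one used gave 0.10, so the sign of its difference depended on the probe set.

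**Figure D2:**
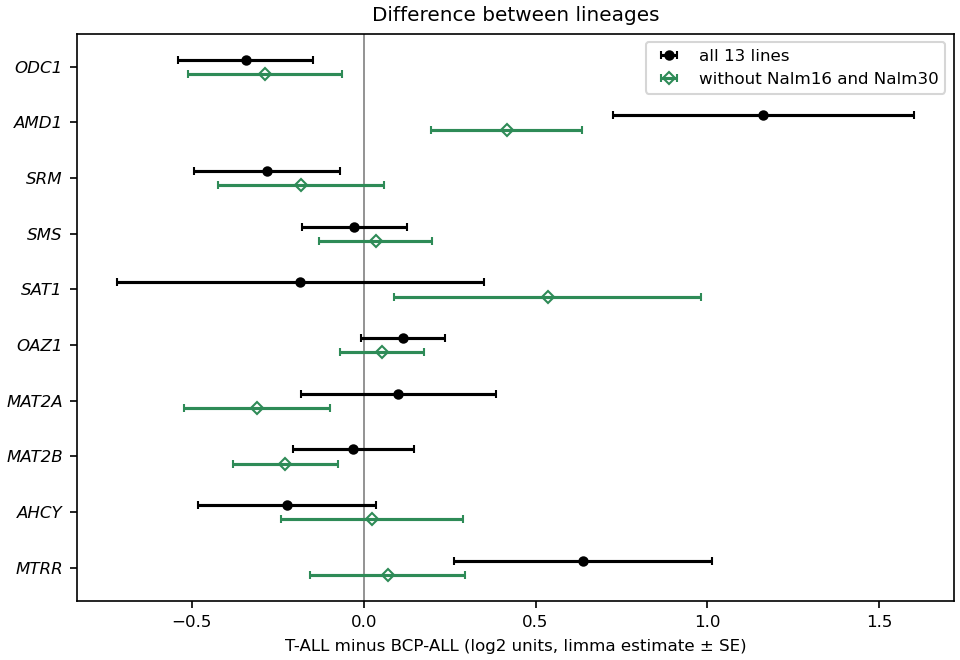
The limma estimate of T-ALL minus BCP-ALL in log2 units with its SE for each member, over all 13 lines (filled circles) and without Nalm16 and Nalm30 (open diamonds). AMD1 is at 1.16 with the pair and at 0.42 without it, and MTRR at 0.64 and 0.07.

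The pairs of members show which transcripts were high and low in the same lines. Correlations between members are descriptions over 13 lines that share lineage and, for P12-ICHIKAWA and TALL-1 and for Nalm16 and Nalm30, may share origin. SRM and AHCY moved together in both lineages: r was 0.76 over all lines, 0.76 within T-ALL and 0.72 within BCP-ALL. It was 0.72 without Nalm16 and Nalm30, and between 0.70 and 0.81 when any line was left out. SRM and AHCY were both lowest in HPB-ALL, at 9.16 and 9.41, and both high in CCRF-CEM, Jurkat, Nalm6, Nalm16 and Nalm30. The genes act at different points, SRM on decarboxylated S-adenosylmethionine and AHCY on the product of methylation.

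AMD1, MAT2A and MTRR formed another group over all lines, with r of 0.87 for AMD1 and MTRR, 0.71 for AMD1 and MAT2A and 0.72 for MAT2A and MTRR. Without Nalm16 and Nalm30 these values were 0.32, -0.02 and 0.12. Within T-ALL they were -0.15, -0.30 and 0.07, and within BCP-ALL 0.94, 0.98 and 0.89. The joint pattern of these members was therefore carried by the pair of lines. MAT2A and its regulatory subunit MAT2B correlated at 0.75 over all lines and at 0.53 without the pair. AMD1 and OAZ1 correlated at 0.66 over all lines, at 0.63 without the pair and at 0.47 over all lines after quantile normalization. Their Spearman's rho was 0.62 over all lines and 0.40 without the pair.

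SAT1 ran against MAT2A (r = -0.65), and without Nalm16 and Nalm30 the value was -0.30. Without that pair, SAT1 also stood at -0.74 with ODC1 and at 0.75 with OAZ1, and with ALL-SIL left out as well these values were -0.16 and 0.56. Of 45 pairs, 6 were at or above 0.6 and 2 at or below -0.6 over all lines, with a median of 0.007. These counts were 3 and 1 without Nalm16 and Nalm30, and 4 and 5 over all lines after quantile normalization. No share over pairs of all expressed genes is given beside them, so whether they are unusual was not tested.

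**Figure D3:**
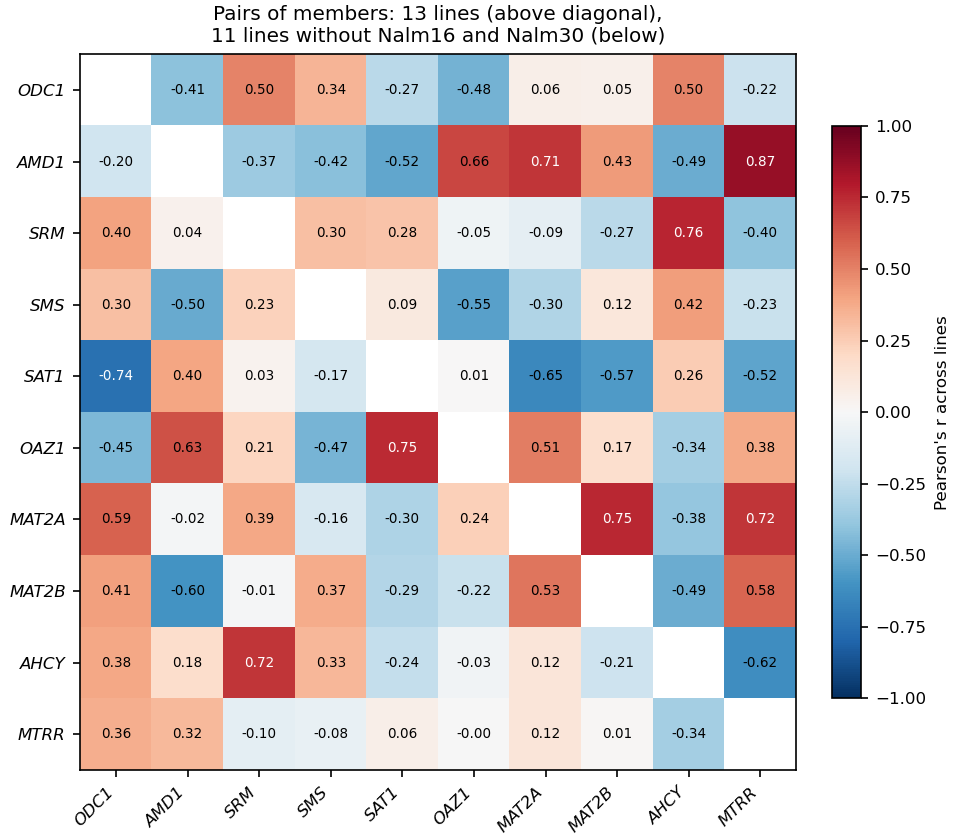
Pearson's r between the log2 signals of each pair of members, over 13 lines above the diagonal and over 11 lines without Nalm16 and Nalm30 below it. SRM with AHCY is 0.76 above and 0.72 below the diagonal, whereas AMD1 with MTRR is 0.87 and 0.32.

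MYC, the transcription factor known to activate ODC1 and other polyamine genes, was 10.21 to 11.32 in T-ALL with a median of 10.81 and 10.75 to 11.85 in BCP-ALL with a median of 11.51. Over 13 lines SRM followed it most closely, with r = 0.76. Its r was 0.60 within T-ALL, 0.87 within BCP-ALL and 0.71 without Nalm16 and Nalm30. For SRM, 97.9% of all expressed genes had a lower r with MYC, for AHCY 90.0%, for ODC1 85.5% and for AMD1 12.1%. ODC1 correlated with MYC at 0.51 (0.39 without the pair) and AHCY, whose stretches held no E-box, at 0.59 (0.35 without the pair). AMD1 ran the other way over all lines, at -0.61, and at -0.05 without the pair. Within T-ALL, ODC1 was at 0.27 with MYC, AHCY at 0.35 and AMD1 at 0.24. Within BCP-ALL they were at 0.52, 0.88 and -0.59, so AHCY there stood level with SRM. By Spearman's rho with MYC, SRM was at 0.69, ODC1 close to it at 0.66, AHCY at 0.59 and AMD1 at -0.40. Without the pair these values were 0.59, 0.55, 0.35 and -0.01. MYCN reached 10.57 in CCRF-CEM, 7.38 to 7.84 in Jurkat, P12-ICHIKAWA and TALL-1, and 5.24 or less elsewhere, and its r with ODC1, AMD1 and SRM was 0.04, 0.34 and 0.04.

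**Figure D4:**
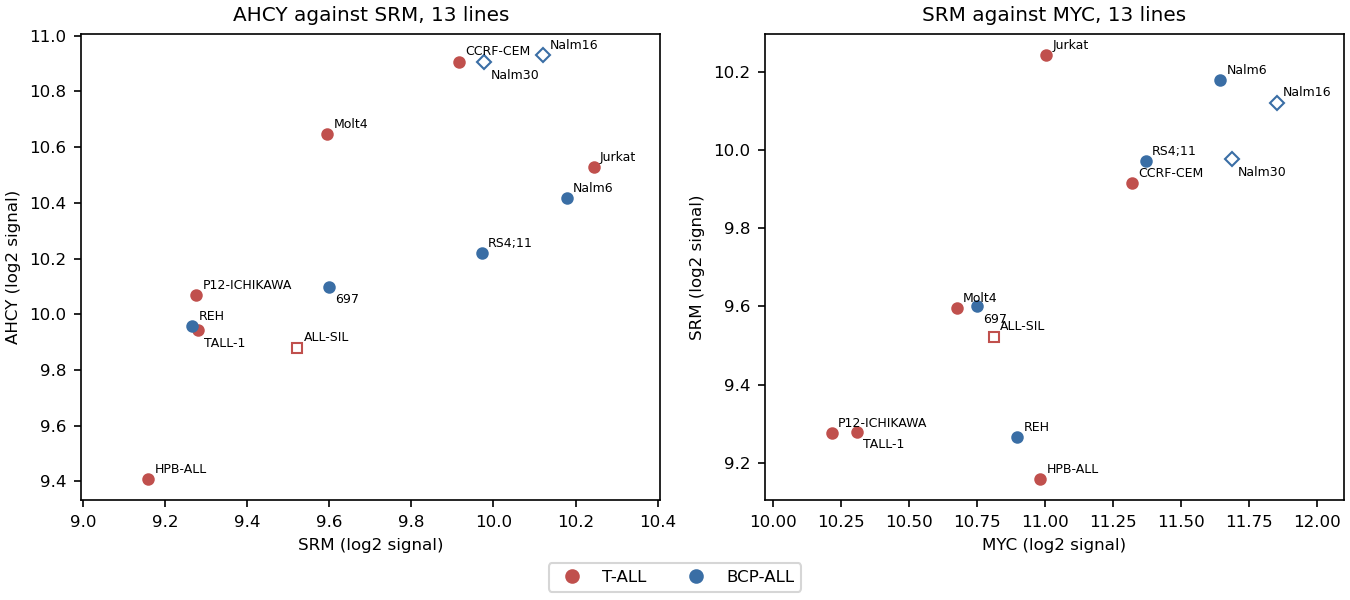
Log2 signals of AHCY against SRM (left) and of SRM against MYC (right), with 1 labelled point per line; diamonds are Nalm16 and Nalm30 and the square is ALL-SIL. The left scatter rises from HPB-ALL, REH, P12-ICHIKAWA and TALL-1 to Jurkat, CCRF-CEM, Nalm6, Nalm16 and Nalm30. The right scatter rises from P12-ICHIKAWA and TALL-1 to Nalm6, Nalm16 and Nalm30 (r = 0.76 in each panel). In the right panel HPB-ALL and Jurkat have nearly the same MYC (10.98 and 11.00) but the lowest and highest SRM (9.16 and 10.24).

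Of the 12550 expressed genes outside the members, PIM3 was most like ODC1 (r = 0.94, and 0.95 without Nalm16 and Nalm30). The genes nearest to AMD1 were NFXL1 and CEP20 (0.99 each, and 0.90 each without the pair). Those nearest to SAT1 were P2RX4 and CLK3 (0.93 and 0.91), to AHCY ADISSP and FES (0.91 each), to MTRR BZW1 and CWC22 (0.97 each) and to SRM GTPBP6 and BORCS6 (0.89 each). SMS had no close neighbour, with 0.77 for both TVP23A and OSBPL1A. With so many genes and 13 lines, high values arise for any gene, and the lists are a description.

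No member passed the test against glutathione or the methotrexate IC50 at 96 h. Neither fit called any gene after adjustment (0.0% of 12560 genes, limma), and 4.8% of genes for glutathione and 2.9% for the IC50 at 96 h had an unadjusted p under 0.05, as against 0 of 10 members. The highest Pearson's r with glutathione was 0.40 for ODC1 and the lowest -0.21 for OAZ1. With the IC50 at 96 h, ODC1 was at 0.46 and AMD1 at -0.26. By Spearman's rho, the values lay between -0.29 (OAZ1) and 0.37 (SMS) for glutathione and between -0.43 (AMD1) and 0.42 (SMS) for the IC50 at 96 h. Without the 2 lines farthest from the median IC50, HPB-ALL and Jurkat, r over the other 11 lines was -0.73 for AMD1, -0.79 for MTRR and 0.63 for AHCY, and 7.1%, 2.98% and 19.3% of all genes had an r at least as large in size. Without Nalm16 and Nalm30 alone, r was -0.16 for AMD1, 0.30 for MTRR and -0.11 for AHCY, and without all 4 lines it was -0.71, -0.46 and 0.55 over 9 lines.

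By Pearson's r, the methotrexate IC50 at 48 h gave the strongest values. The study reports that this IC50 was closely correlated with doubling time, and the part of growth in these values was not tested. SAT1 had the highest coefficient of the members, with Pearson's r of 0.80 (permutation p = 0.00247, a p under 0.05 being reached by 26.7% of all genes) and Spearman's rho of 0.64 (permutation p = 0.0211, as against 13.3% of all genes). The limma fit over all genes gave SAT1 an adjusted p of 0.053, and 0.541% of genes passed. AMD1 (r = -0.69, permutation p = 0.0116, limma adjusted p = 0.073), MTRR (r = -0.62, permutation p = 0.0186, limma adjusted p = 0.107) and MAT2A (r = -0.62, permutation p = 0.0264, limma adjusted p = 0.123) had negative coefficients. These 4 of 10 members had an unadjusted limma p under 0.05, as did 26.3% of all genes. The 2 lines farthest from the median IC50 at 48 h were Nalm16 and Nalm30. Without them r was 0.60 for SAT1 (permutation p = 0.065), -0.07 for AMD1, -0.05 for MTRR and -0.16 for MAT2A. Spearman's rho of SAT1 was then 0.43 (permutation p = 0.193). The negative relations thus rested on those lines, and the SAT1 relation was weaker without them. Over the alternatives the limma adjusted p of SAT1 ran from 0.0071 to 0.739. It passed with quantile normalization (0.042) or with lineage as a covariate (0.045). It was 0.257 with Nalm16 and Nalm30 averaged, 0.327 with both pairs of similar lines averaged and 0.163 with the IC50 on a log2 scale. It was 0.219 without Nalm16, 0.282 without Nalm30 and 0.739 without the Nalm pair. SAT1 and AMD1 passed without ALL-SIL, where 9.66% of all genes did, and SAT1, AMD1, MAT2A and MTRR passed without HPB-ALL, where 19.8% did. Within T-ALL SAT1 stood at 0.62 and within BCP-ALL at 0.91, with exact permutation p of 0.126 and 0.021. The relation of 1 gene and 1 phenotype was computed 40 times over the members, and no member passed after the permutation p was adjusted over all genes (lowest 0.091, SAT1).

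Methionine in untreated cells, the substrate of MAT2A, stood out in rank for SAT1, with rho of -0.71 (permutation p = 0.00811, adjusted over all genes 0.855), where 5.5% of all genes had an unadjusted p under 0.05. It was -0.79 within T-ALL and -0.77 within BCP-ALL (exact permutation p of 0.048 and 0.103). It was -0.67 without Nalm16 and Nalm30 and -0.70 without the 2 lines farthest from the median, Molt4 and P12-ICHIKAWA. On the other SAT1 probe sets rho was -0.58 at the weakest. On the probe set used, Pearson's r was -0.24, and it was -0.52 without Molt4, -0.25 without P12-ICHIKAWA and -0.58 without both. MAT2A, MAT2B, AHCY and MTRR had rho between -0.17 and 0.19. By limma, 0.0318% of genes passed for methionine and no member did, nor did any have an unadjusted p under 0.05 (2.87% of all genes).

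**Figure D5:**
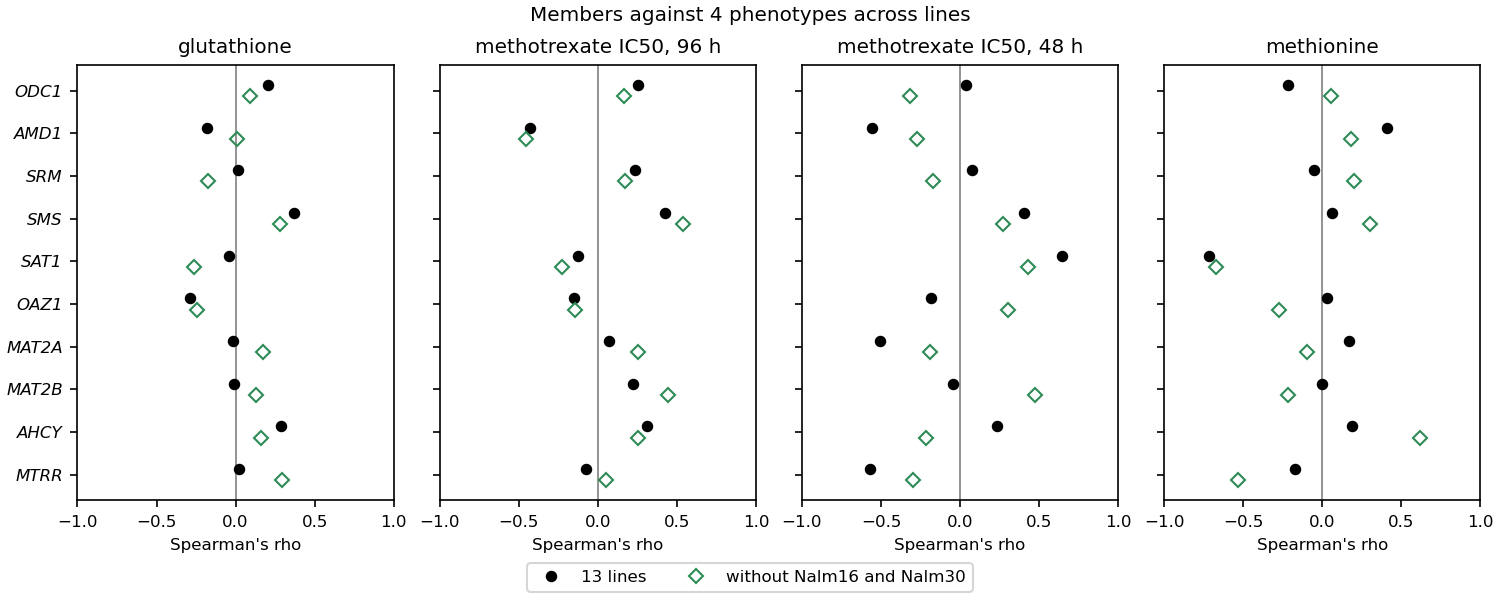
Spearman's rho of each member with glutathione, the methotrexate IC50 at 96 h and at 48 h, and methionine, over 13 lines (filled circles) and 11 lines without Nalm16 and Nalm30 (open diamonds). SAT1 is at 0.64 with the IC50 at 48 h and at -0.71 with methionine, and at 0.43 and -0.67 without the pair.

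The slope on glutathione differed between lineages for 5 of 10 members (limma interaction over all genes, 17.1% of which passed): SAT1 (adjusted p = 0.015), MAT2A (0.020), AMD1 (0.025), MTRR (0.027) and MAT2B (0.044). MAT2A had r = 0.82 with glutathione within T-ALL (exact permutation p = 0.024) and r = -0.81 within BCP-ALL (exact permutation p = 0.069). SAT1 had r = -0.72 within T-ALL and 0.84 within BCP-ALL (exact permutation p of 0.070 and 0.054). Without Nalm16 and Nalm30 none of the 5 passed (adjusted p = 0.9995 each), and each interaction estimate was smaller than its SE. For the IC50 at 48 h the slope of AMD1 differed (adjusted p = 0.024, where 10.9% of genes passed), and without the pair its adjusted p was 0.9996. The slope on the IC50 at 96 h differed for 0 of 10 members (0.00796% of genes, lowest adjusted p 0.0941, MTRR). Without Nalm30 it differed for AMD1, MTRR and MAT2A (limma adjusted p of 0.0027, 0.0046 and 0.0076), where 17.5% of genes passed. The slope on methionine differed for 0 of 10 (0.239% of genes, lowest adjusted p 0.443, SAT1).

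Of 18 further genes of polyamine metabolism, 16 were expressed, and 1 passed the lineage test in each direction. EIF5A2, an isoform of the translation factor that carries hypusine, an amino acid made from spermidine, was 6.18 to 6.66 in T-ALL and near the floor in every BCP-ALL line (4.04 to 4.26). Its difference was 2.28 log2 units (SE 0.12), and it is a description, since the gene passed the filter on low expression through the T-ALL lines alone (7 above their array's median, against 0 in BCP-ALL). SAT2, named as a relative of SAT1, was lower in T-ALL, at 4.08 to 6.61, against 6.27 to 7.99 in BCP-ALL, by -1.96 (SE 0.41, limma adjusted p = 0.011, and 0.063 without Nalm16 and Nalm30). DHPS, which makes the first step of hypusine, was at 9.35 ± 0.19 in T-ALL and 8.90 ± 0.23 in BCP-ALL (limma adjusted p = 0.076). ATP13A2, a lysosomal polyamine exporter, was at 5.90 ± 0.53 in T-ALL and 6.79 ± 0.91 in BCP-ALL (limma adjusted p = 0.164).

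Of 21 further genes of the methionine cycle and salvage, 16 were expressed, and 1 passed the lineage test. MAT1A, the liver form of the MAT2A enzyme, was below 5 on the log2 scale, close to the floor, in 8 lines and averaged 4.64 ± 0.18 in T-ALL and 5.32 ± 0.34 in BCP-ALL (difference -0.68). It passed the filter only through 3 BCP-ALL lines and not at all without Nalm16 and Nalm30, so that value too is a description. APIP and ADI1, enzymes of methionine salvage, had T-ALL means of 9.27 ± 0.40 and 9.30 ± 0.55, against BCP-ALL means of 8.44 ± 0.57 and 10.07 ± 0.56 (limma adjusted p of 0.075 and 0.129). The share of called genes, 2 of 16 and 1 of 16 with EIF5A2 and MAT1A counted, stood beside 7.63% of all genes, and the medians of the differences, -0.075 and -0.018, beside 0.034 over all genes. No gene of either list passed against any phenotype. In Nalm16 and Nalm30, 3 of 16 polyamine genes were below all other lines and 3 (SAT2, SMOX and OAT) above, and 4 of 16 methionine genes were below and none above, where 20.5% of all genes were below and 32.5% either below or above. Among those below was MTR, the methionine synthase that MTRR serves, at 6.13 and 7.13 against 8.02 to 8.91 elsewhere. MTR, SMOX, OAT and CBS fell outside the rule for named genes and were chosen after the values were seen.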

How the data were processed

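Expression was measured in 13 ALL cell lines, 1 array each. Per the labels and the methods, the authors made the deposited log2 values with iterPLIER+16 in Affymetrix Expression Console, version not stated. No scaling between arrays is described, and the array medians ran from 5.05 to 5.37. Arrays give no read depth, and precision is set by the number of lines.

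Among 42450 probe sets, 38125 had 1 gene symbol, 1742 several and 2583 none, and only the first kind was used. Genes were kept for fits when above their array's median in at least 3 lines. Lineage and the phenotypes (glutathione, methionine and the IC50 at 48 and 96 h, which the study gives per line and which serve here as the x axis) were fitted in R 4.3.3 with limma 3.58.1. P-values were adjusted by Benjamini-Hochberg over 12560 genes, with a threshold of 0.05. Correlations used two-sided permutation tests with 100000 resamples, all 5040 pairings of 7 lines or all 720 of 6, in Python with scipy. Both steps were tested on simulated data. Doubling times were not used here.

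The members, gene lists and tests were chosen with earlier results of these data known. The text names the 10 members, of the pathway lists the genes past the threshold for lineage and up to 4 more with the smallest p, MYC and MYCN, and the expressed genes most like each member. Alternatives covered normalization, filter, probe set, variance model, similar lines averaged, each line left out, lineage as a covariate and log2 phenotypes. Leaving out Nalm16 and Nalm30, other named lines from a correlation, and all alternatives for slopes by lineage, were added after the data were seen.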

Additional observations from a re-analysis of the deposited data

Results flagged for a closer look

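The levels of 4 members had a line at the end of its lineage that lay far from the others by Dixon's criterion. These were ODC1 in ALL-SIL (10.69, next 11.45), SAT1 in ALL-SIL (9.87, next 8.25), OAZ1 in ALL-SIL (12.34, next 12.18) and SMS in REH (9.59, next 10.04). Chance marks about 1 in 20 groups, and 4 of 20 groups were marked here, 3 of them by ALL-SIL. Over all expressed genes, 8.32% of groups were marked in the same way, and 9.86% of those in T-ALL. ODC1 was past the criterion by a small margin (a gap of 0.569 of the range).

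For 5 members the slope on glutathione differed between T-ALL and BCP-ALL by a limma interaction term adjusted over all genes: SAT1 (0.0146), MAT2A (0.0195), AMD1 (0.0246), MTRR (0.0271) and MAT2B (0.0442). For the IC50 at 48 h the slope of AMD1 differed (0.0236). Without Nalm16 and Nalm30 all 6 had adjusted p of 0.9995 or more.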

How the results depend on the processing

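No paired analysis was possible because the labels carry no replicate numbers shared between lineages. No member passed for lineage or for the overall slope on glutathione, the IC50 at 96 h or methionine under any alternative run. For the IC50 at 48 h, where no member passed in the main setting, 1 member passed (SAT1) with quantile normalization, with the most variable probe set, with the intensity trend and robust variance and with lineage as a covariate, and 0 to 4 passed when each line was left out (2 without ALL-SIL, 4 without HPB-ALL). The count of members whose slope on glutathione differed between lineages was 5, against 0 without Nalm16 and Nalm30, 1 with both pairs averaged, 3 with log2 glutathione and 1 to 5 with each line left out (1 without Nalm16 or ALL-SIL, 2 without Nalm6 and 3 without Nalm30 or HPB-ALL). For the IC50 at 48 h that count was 1, against 2 with quantile normalization, 0 without Nalm16 and Nalm30, 0 with both pairs averaged and 0 to 2 with each line left out (0 without Nalm16 or HPB-ALL, 2 without Nalm30). For the IC50 at 96 h it was 0, and 0 to 3 with each line left out (3 without Nalm30, where 2159 of all genes passed, against 1 with all lines). Of 45 pairs of members, 8 had r of at least 0.6 in size, against 4 without Nalm16 and Nalm30 and 4 to 11 with each line left out (4 without Nalm16, 5 without Nalm30, 11 without ALL-SIL). Over all genes, the count called for lineage was 958, against 476 with both pairs averaged and 614 to 1226 with each line left out. For the IC50 at 48 h it was 68, against 3 without Nalm16 and Nalm30, 410 with the most variable probe set and 7 to 2471 with each line left out (7 without Nalm30, 2471 without HPB-ALL). The remaining settings, quantile normalization, the intensity trend and lineage as a covariate among them, lay between 3 and 410. For methionine it was 4, against 17 with no filter and 0 to 11 with each line left out. For slopes by lineage, 2146 genes passed on glutathione and 1375 on the IC50 at 48 h, against 10 and 29 without Nalm16 and Nalm30. With each line left out, 852 to 2085 and 246 to 1494 genes passed. In the settings that leave out no single line, the counts reached 2492 and 1495, so the counts of members moved along with those of all genes. The cause of these changes was not tested, beyond the lines that each setting drops or joins.

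The sign of small lineage differences was not stable. SAT1 (-0.18 in the main setting) was 0.10 with Nalm16 and Nalm30 averaged, 0.13 with both pairs averaged, 0.54 without the pair and -0.47 to 0.17 with 1 line left out. MAT2A (0.10) was -0.30 with the most variable probe set, -0.064 with Nalm16 and Nalm30 averaged, -0.023 with both pairs averaged, -0.31 without the pair and -0.090 to 0.23 with 1 line left out. SMS (-0.03) was 0.011 with both pairs averaged, 0.035 without the pair and -0.12 to 0.020 with 1 line left out. MAT2B (-0.03) was 0.0057 with P12-ICHIKAWA and TALL-1 averaged and -0.13 to 0.019 with 1 line left out, and AHCY (-0.22) was 0.024 without Nalm16 and Nalm30.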

Other observations

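Several pathway genes outside the rule for named genes, chosen after their values were seen, had levels that differed widely between lines. AGMAT, named for agmatine hydrolysis, was 10.38 in CCRF-CEM, 10.06 in Nalm16 and 10.76 in Nalm30, and 4.82 or less in the other 10 lines. OAT, which links ornithine to glutamate and proline and so competes with ODC1 for ornithine, was 4.0 in ALL-SIL, 4.16 in CCRF-CEM and 4.32 in RS4;11, against 9.42 to 10.55 elsewhere. CBS, which commits homocysteine to cysteine synthesis, was 7.70 in CCRF-CEM, 7.74 in Jurkat, 8.40 in Molt4, 7.47 in 697, 8.01 in Nalm16 and 9.08 in Nalm30, and 4.63 or less in the other 7 lines. EIF5A ran from 6.63 in Nalm16 to 12.55 in Jurkat, and ALL-SIL (7.27) was the lowest T-ALL line. These patterns did not follow lineage (limma adjusted p of 0.646 for AGMAT, 0.650 for OAT, 0.913 for CBS and 0.907 for EIF5A).

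AZIN1, the antizyme inhibitor that frees ODC1, was highest in ALL-SIL (10.83), where OAZ1 was also highest, and lowest in Nalm16 (8.20) and Nalm30 (8.77), against 9.69 to 10.30 in the other 10 lines. ATP13A3, a polyamine transporter, was 5.09 in Nalm16 and 6.66 in Nalm30, against 8.53 to 9.43 in the other 11 lines.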
